A study of Mus musculus with 8 samples.

Results

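Osteopontin and its receptors were followed as 9 genes: the ligand Spp1 and the 8 receptor genes Cd44, Itgav, Itgb1, Itgb3, Itgb5, Itga4, Itga5 and Itga9. They are 9 of the 52636 genes in the deposited tables and were picked by gene symbol, Spp1 because its level differed between the groups in these same libraries and the receptors because they are known to bind osteopontin. The group difference of Spp1 is therefore described and not tested, and the receptor genes were read from a test across all genes. A gene was tested where it reached at least 1 TPM (transcripts per 1 M, a level corrected for transcript length and library size) in 4 or more libraries. That filter left 11433 genes and 5 of the 9 members, namely Spp1, Cd44, Itgav, Itgb1 and Itga4. Itgb3, Itgb5, Itga5 and Itga9 did not reach it and are given by their values alone.

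Polyadenylated RNA was sequenced from mixtures of C57BL/6 mouse spleen cells and colon cancer cells that had grown together for 5 days. The cancer cells were grown as organoids with a tdTomato reporter, injected into the spleen and recovered from liver metastases. Cells that carried both tdTomato and CD4, a T cell surface protein, can have gained the latter by trogocytosis, the transfer of membrane pieces between cells. In the trogocytic group (4 libraries) the mixture held sorted trogocytic cancer cells, and in the non-trogocytic group (4 libraries, the control) it held sorted non-trogocytic cancer cells. Both groups shared everything else in the labels: the syngeneic splenocytes of Actin-GFP reporter mice, the ratio of 1 cancer cell to 50 splenocytes and the length of culture. The sources used here do not give the driver alleles of the organoids, the age of the mice or whether replicates came from separate animals. The p-values therefore reflect the scatter of these libraries, and that scatter may be technical. RNA came from the whole mixture, so for every gene fewer cells of a type and less RNA per cell cannot be told apart.

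Osteopontin is a secreted, phosphorylated glycoprotein that macrophages, osteoclasts, activated T cells and many epithelial tumours release. It binds αv integrins and α5β1 through an arginine-glycine-aspartate (RGD) motif, it binds α4 and α9 integrins through the stretch just after that motif, which cleavage by thrombin exposes, and it binds CD44, the hyaluronan receptor. In tumours it is known for its part in cell adhesion, migration and the recruitment of myeloid cells.

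Spp1 (ENSMUSG00000029304.14) lies on the plus strand of GRCm38 at chr5:104435118-104441050. The coding stretch below holds the docking site of its integrin receptors, which are 7 of the 8 receptor genes followed, and is printed for that reason. It is the plus strand of exon 6 of the 7 exons of the first annotated transcript, at chr5:104439451-104439540. The capitals mark the 3 codons of the RGD motif, which begins at codon 144 of that transcript, and the 7 codons after it.
Spp1 integrin-binding stretch: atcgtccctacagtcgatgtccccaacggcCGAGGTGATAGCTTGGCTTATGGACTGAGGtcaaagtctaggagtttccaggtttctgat
Of the 7 annotated coding transcripts, 6 hold this motif. The exception is a fragment whose annotated coding part of 146 bases ends before it. The mean length of the transcripts to which Spp1 reads had been assigned was 1431 to 1442 bases in the 8 libraries, close to the longest annotated transcript of 1507 bases, so no shift between long and short forms was seen.

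Depth was 1.39 to 1.84 Gb of aligned sequence, or about 6.93 to 9.21 M pairs of reads, and 10867 to 12362 genes reached 1 TPM. Epcam, an epithelial adhesion protein, was present at 249 to 496 TPM, and Cd68, a macrophage lysosomal protein, at 312 to 2039 TPM, so the libraries held transcripts of both cell classes in the labels. Replicate 1 of each group had the highest summed TPM of the macrophage, T cell and B cell marker lists within its group. Non-trogocytic replicate 3 alone held liver transcripts, at a summed 159.7 TPM over 8 hepatocyte genes that were at 0 in the other 7 libraries. The Spp1 difference is given with and without these libraries.

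Spp1 was the most abundant of the 9 genes and was lower with trogocytic cancer cells. It stood at 2633, 1694, 2618 and 2015 TPM in non-trogocytic replicates 1 to 4 and at 573, 707, 806 and 1051 TPM in trogocytic replicates 1 to 4. The lowest non-trogocytic library was above the highest trogocytic library, so the groups did not overlap. The means were 2240 ± 464 TPM (SD, n = 4) and 784 ± 202 TPM (SD, n = 4), a ratio of 2.86. On the log2(TPM + 1) scale the difference, trogocytic minus non-trogocytic, was -1.52, and it was -1.30 without replicate 1 of both groups and -1.44 without non-trogocytic replicate 3. Estimated read pairs behind the gene were 8675 to 15970 in the non-trogocytic and 2392 to 4753 in the trogocytic libraries, so sampling of reads adds little to these values. Since Spp1 was chosen for this difference, no test of it is given. A predicted gene on the same strand, Gm42793, overlaps its exons by 309 bases but was at most 0.00187 TPM.

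None of the 4 tested receptor genes was called as different between the groups, as was the case for nearly all tested genes. Of the 8 receptor genes, 4 could be tested and 0 were called at an adjusted p below 0.05 (limma with Benjamini-Hochberg adjustment over all genes), where 0.0525% of all tested genes were called (0.0175% higher and 0.035% lower in the trogocytic group), and 0 of the 4 had an unadjusted p below 0.05, where 4.59% of all tested genes did. The log2 differences of the 4 had a median of -0.13, and 3 of 4 were below 0. Over all tested genes the median was 0.007, and 49.3% were below 0. None of the 8 receptor genes separated the groups without overlap, which 2.68% of all tested genes did (1.3% lower and 1.37% higher in the trogocytic group). The plot of the 9 members by library shows Spp1 as the only member whose groups stand apart.

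**Figure D1:**
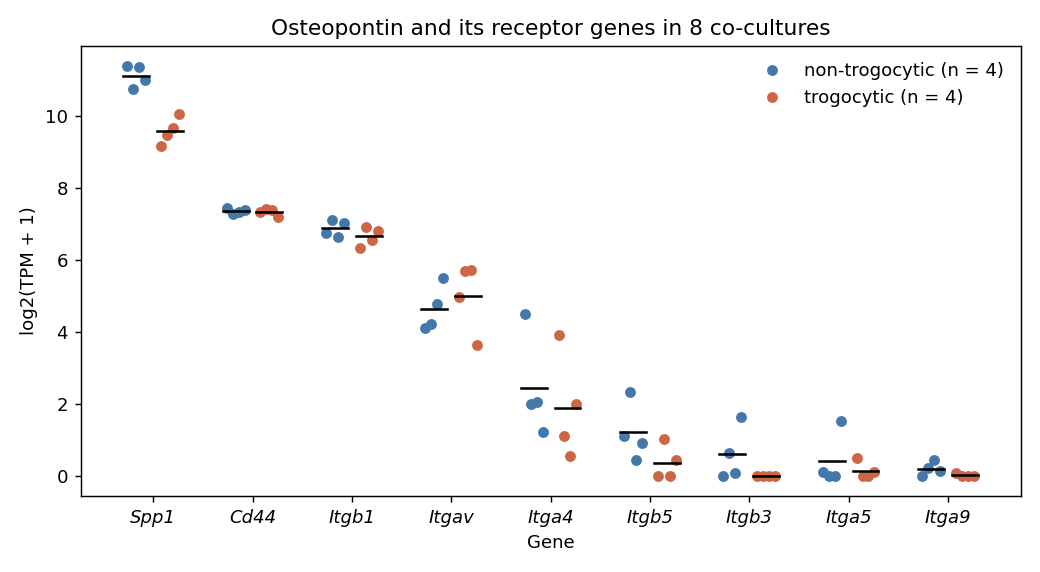
Level of each of the 9 genes in every library, as log2(TPM + 1) on the y axis, with genes on the x axis. Points are libraries (4 non-trogocytic in blue, 4 trogocytic in orange) and bars are group means. Spp1 is the only gene whose groups do not overlap, and Cd44 is the receptor gene with the least spread.

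The levels over all 8 libraries ran in the order Spp1 (1512 ± 846 TPM, SD, n = 8), Cd44 (160.7 ± 9.03), Itgb1 (108.5 ± 19.2), Itgav (30.9 ± 16.0), Itga4 (5.91 ± 7.54), Itgb5 (0.978), Itgb3 (0.342), Itga5 (0.301) and Itga9 (0.0811). TPM is per length of the transcripts that reads were assigned to, so an order between close genes can depend on that assignment. By deposited coverage per Gb, which does not use it, Itgb5 (0.0573) was below Itgb3 (0.141) and Itga5 (0.132). The mean length of the transcripts its reads were assigned to was estimated at 477 bases. That estimate is approximate, since the ID version of Itgb5 differs in the annotation used for it. The first 3 neighbouring pairs in this order, down to Itgb1 above Itgav, kept their order in 8 of 8 libraries, and their ranges did not overlap. Itgav was above Itga4 in 7 of 8 libraries, with overlapping ranges. Itga4 was above Itgb5 in 7 of 8 libraries, but their difference of 4.93 TPM was below the SD of Itga4. From Itgb5 down, no neighbouring pair differed by more than the larger SD of the pair.

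Cd44 encodes the transmembrane receptor for hyaluronan, which also binds osteopontin outside the RGD motif. The gene (ENSMUSG00000005087.17, minus strand of chr2:102811141-102901665) stood at 173, 154, 158 and 165 TPM in the non-trogocytic and at 158, 167, 166 and 144 TPM in the trogocytic libraries. The groups overlapped almost fully. The difference was -0.03 on the log2 scale, with a standard error of 0.16, a 95% interval of -0.39 to 0.32 and an adjusted p of 0.9998 (limma). That interval does not reach the -1.52 seen for Spp1, a value for which Spp1 was chosen. The sign turned to 0.011 without trogocytic replicate 4, the lowest of the 8. Between 2397 and 4079 estimated read pairs lay behind each value, and the mean assigned transcript was 5208 to 5592 bases long.

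Integrin β1 pairs with α4, α5, α9 and αv among the osteopontin-binding subunits. Itgb1 (ENSMUSG00000025809.15, chr8:128685654-128733200) was at 106, 137, 97.3 and 127 TPM in the non-trogocytic and at 78.5, 119, 92.4 and 111 TPM in the trogocytic libraries. The lowest values, 78.5 and 92.4 TPM, were trogocytic and the highest, 127 and 137 TPM, non-trogocytic. Between them the non-trogocytic 97.3 and 106 TPM lay below the trogocytic 111 and 119 TPM, so the groups overlapped. The log2 difference was -0.23 with a standard error of 0.21, a 95% interval of -0.70 to 0.25 and an adjusted p of 0.9998 (limma).

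Integrin αv is the partner of β1, β3, β5, β6 and β8 in the RGD-binding receptors. Itgav (ENSMUSG00000027087.11, chr2:83724397-83806916) was at 16.1, 17.5, 26.2 and 43.8 TPM in the non-trogocytic and at 30.1, 50.7, 51.5 and 11.4 TPM in the trogocytic libraries. The 2 highest libraries and the lowest were all trogocytic. The log2 difference was 0.36 with a standard error of 0.50, a 95% interval of -0.75 to 1.47 and an adjusted p of 0.9998 (limma). This interval too does not reach the -1.52 of Spp1, but it leaves room for a rise of more than 1 on the log2 scale. It rests on TPM values that depend on transcript assignment, as given below. The difference was 0.12 without trogocytic replicate 3 and 0.82 without trogocytic replicate 4.

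The TPM of Itgav depended on which of its transcripts the reads had been assigned to. The deposited TPM of a gene is a sum over its transcripts, and Itgav has 9 annotated ones of 444 to 7054 bases, so a read assigned to a short form weighs more than 1 assigned to the long form. The mean assigned length was 6646, 5427, 4891 and 1651 bases in the non-trogocytic libraries and 4608, 2873, 3447 and 7054 bases in the trogocytic ones. The lowest TPM was thus in the library whose reads lay on the full-length form and 1 of the 3 highest in the library with the shortest mean form. Deposited coverage over the whole gene model, per Gb aligned, does not use that assignment. It was 4.56, 3.78, 5.38 and 3.00 in the non-trogocytic and 5.42, 5.95, 7.04 and 3.25 in the trogocytic libraries, with means of 4.18 ± 1.023 and 5.41 ± 1.59 (SD, n = 4). The groups overlapped on this scale as well, and the highest library was 2.35 times the lowest, against 4.50 times by TPM. Reads of the predicted gene Gm13684, which overlaps 634 bases of Itgav exons on the opposite strand at up to 4.01 TPM, could be counted with it if the counting used no strand; the sources used here do not say.

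**Figure D2:**
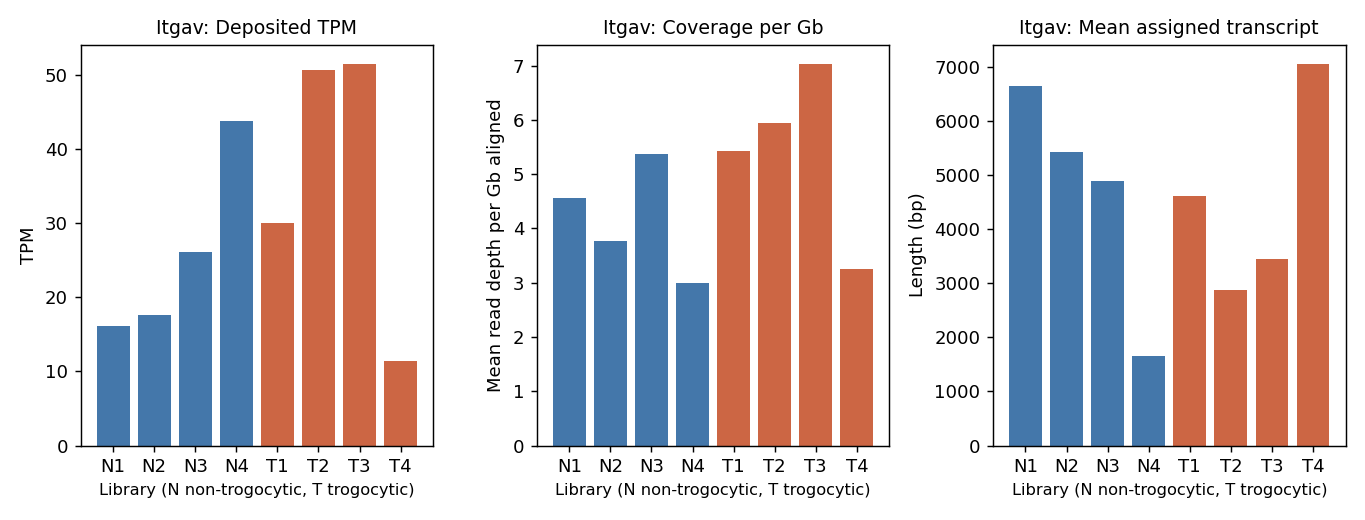
Itgav in the 8 libraries (x axis; N non-trogocytic in blue, T trogocytic in orange), as deposited TPM (left), deposited coverage per Gb aligned (middle) and the mean length in bases of the transcripts its reads were assigned to (right). Bars are single libraries. The library N4 has the shortest mean form at 1651 bases and the lowest coverage, yet the third highest TPM.

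Integrin α4 is the leukocyte subunit of the receptor α4β1, which also binds VCAM1 and fibronectin. Itga4 (ENSMUSG00000027009.18, chr2:79255426-79333123) was at 21.3, 2.99, 3.16 and 1.33 TPM in the non-trogocytic and at 13.9, 1.16, 0.461 and 2.96 TPM in the trogocytic libraries. Replicate 1 of each group was far above the other 3, and the remaining libraries overlapped. The log2 difference was -0.55 with a standard error of 0.86, a 95% interval of -2.46 to 1.35 and an adjusted p of 0.9998 (limma), and it became 0.13 without non-trogocytic replicate 1. That interval holds a fall as large as that of Spp1. Between 11.9 and 546 estimated read pairs lay behind these values. Cerkl, a gene on the opposite strand that shares 1124 exonic bases with Itga4, was at 12.1 TPM in non-trogocytic replicate 1 and at 7.36 TPM in trogocytic replicate 2, and its part in the Itga4 values was not tested.

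The other 4 receptor genes were near the floor. Integrin β5, which pairs with αv, was read from Itgb5 (ENSMUSG00000022817.14, chr16:33829665-33949153) at 1.15, 4.05, 0.365 and 0.891 TPM in the non-trogocytic and at 0, 1.01, 0 and 0.353 TPM in the trogocytic libraries. Each of these values rested on fewer than 7 estimated read pairs (0.532 to 6.91 where the gene was above 0), and the groups overlapped. Integrin β3, the partner of αv on osteoclasts, endothelium and platelets, was read from Itgb3 (ENSMUSG00000020689.4, chr11:104608000-104670476) at 0, 0.560, 0.0583 and 2.12 TPM in the non-trogocytic libraries and was listed at 0 in all 4 trogocytic ones. The highest of these, in non-trogocytic replicate 4, rested on 39.6 estimated read pairs and the next on 11.0. Non-trogocytic replicate 1 was at 0 as well, so the groups overlapped.

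Integrin α5, the fibronectin receptor subunit, was read from Itga5 (ENSMUSG00000000555.7, minus strand of chr15:103344286-103366763) at 0.0689, 0, 0 and 1.87 TPM in the non-trogocytic and at 0.401, 0, 0 and 0.0681 TPM in the trogocytic libraries. Only non-trogocytic replicate 4 reached 1 TPM, from 31.2 estimated read pairs. Integrin α9, which binds the stretch after the RGD motif, was read from Itga9 (ENSMUSG00000039115.13, chr9:118606690-118901003) and was at most 0.342 TPM in any library, from about 1 read pair (estimate 1.01). A difference in these 4 genes was not detectable at this depth, and their levels do not show that the proteins were absent.

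The remaining subunits known to bind osteopontin were measured as a list of 3 genes, of which 2 were tested and 0 were called. Itgb6, an epithelial partner of αv, was at 14.6 ± 7.72 TPM in the non-trogocytic and 19.95 ± 6.53 TPM in the trogocytic libraries (SD, n = 4), with a log2 difference of 0.48 (standard error 0.40, limma adjusted p = 0.9998). Itgb7, the leukocyte partner of α4 in gut homing, was at 0.495 ± 0.709 and 3.91 ± 3.31 TPM, a log2 difference of 1.44 that also missed the threshold (limma adjusted p = 0.9998). Itga8 was below 1 TPM in every library. None of the 4 bone and dentin relatives of Spp1 in the same gene cluster (Ibsp, Dmp1, Dspp and Mepe) was detected, each listed at 0 in all 8 libraries.

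Among 8 genes for enzymes that cut, crosslink or phosphorylate osteopontin, 4 were tested, 3 of them below 0, and 0 were called, with a median log2 difference of -0.22. Mmp7 (matrilysin, an epithelial metalloprotease that cuts osteopontin) was at 153 ± 97.8 TPM in the non-trogocytic and 61.1 ± 25.2 TPM in the trogocytic libraries, a log2 difference of -1.04 (standard error 0.64, limma adjusted p = 0.9998). Plau, the urokinase plasminogen activator, was at 2.12 ± 2.71 and 9.01 ± 3.04 TPM, a log2 difference of 2.11 (standard error 0.67, limma adjusted p = 0.9388). Tgm2 (transglutaminase) and Fam20c (the kinase of secreted phosphoproteins) had log2 differences of -0.40 and -0.03. F2, which encodes prothrombin, and Plg, which encodes plasminogen, were at 0 in all 8 libraries.

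Other ligands of the same receptors numbered 12, of which 7 were tested, 5 of them below 0, and 0 were called, with a median log2 difference of -0.20. Mfge8, the RGD-bearing bridge by which αv integrins take up dying cells, was at 18.6 ± 11.95 TPM in the non-trogocytic and 4.21 ± 2.17 TPM in the trogocytic libraries, a log2 difference of -1.70 (standard error 0.70, limma adjusted p = 0.9998). Vcam1, the ligand of α4β1, was at 24.3 ± 19.4 and 43.8 ± 18.8 TPM, a log2 difference of 1.08 (standard error 0.57, limma adjusted p = 0.9998). Srgn (serglycin, a CD44 ligand of leukocytes) was at 96.8 ± 80.9 and 94.2 ± 64.7 TPM, and Thbs1 (thrombospondin) at 16.7 ± 4.94 and 14.0 ± 3.67 TPM.

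The rest of the integrin system showed medians close to that of all genes. Of 16 other integrin subunits 6 were tested, 3 on each side of 0, with a median log2 difference of -0.09. The most abundant, Itga6 (a laminin receptor subunit of epithelium), was at 68.2 ± 31.2 TPM in the non-trogocytic and 75.2 ± 33.3 TPM in the trogocytic libraries, and the leukocyte subunit Itgb2 was at 24.6 ± 19.0 and 16.9 ± 10.3 TPM. Of 17 genes of the adhesion machinery inside the cell 14 were tested, 7 on each side of 0, with a median of -0.02. In that list Lims1 (an adapter of integrin-linked kinase) was at 121.9 ± 26.7 and 116.5 ± 21.9 TPM and Fermt1 (kindlin of epithelium) at 44.4 ± 28.3 and 35.6 ± 8.62 TPM. The 5 cytoskeletal linkers and splicing regulators of CD44 were all tested, 3 below 0 and 2 above, with a median of -0.03. Rdx (radixin) was at 219 ± 24.8 and 229.5 ± 41.6 TPM, and 0 genes were called in any of these lists.

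The next question was whether Spp1 followed the macrophage or the epithelial content of the mixtures. Between the groups, macrophage markers lay lower with trogocytic cells, as Spp1 did, and epithelial markers lay on both sides of 0. Of 20 macrophage markers 18 were tested and 18 of 18 had a log2 difference below 0, with a median of -0.79, but 0 passed the test. Lyz2 (lysozyme) was at 6418 ± 4020 TPM in the non-trogocytic and 2334 ± 1305 TPM in the trogocytic libraries (limma adjusted p = 0.9498), and Fcgr1 (an Fc receptor) at 7.39 ± 5.21 and 0.681 ± 0.936 TPM (limma adjusted p = 0.5812). The list's summed TPM was 5334 to 23770 in the non-trogocytic and 2713 to 8862 in the trogocytic libraries, and none of its 20 genes was at 0 throughout. Of 15 colon epithelium markers 14 were tested, 7 on each side of 0, with a median of -0.02, and Cdx1 was at 0 in all libraries. Their summed TPM was 3416 to 9599 and 5499 to 7229.

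Other marker lists also lay to one side of 0, although none of their genes was called. Of 12 T cell markers 11 were tested and 11 were above 0 (median log2 difference 0.91, summed TPM 322.7 to 1099 and 597 to 1678). The 9 mitochondrial transcripts, read as a sign of RNA quality, were above 0 in 9 of 9 cases (median 0.54, summed TPM 2884 to 9550 and 5130 to 10280). Osteoclasts are another known source of osteopontin. Of 8 osteoclast markers 3 were tested, and all 3 were below 0 (median -1.23, summed TPM 142.8 to 360.4 and 40.7 to 122.9). Atp6v0d2, a proton pump subunit that macrophages also express, was at 171 ± 76.2 and 34.1 ± 12.6 TPM (log2 difference -2.22, limma adjusted p = 0.1874), whereas Calcr, Dcstamp, Ocstamp and Oscar were at 0 in all 8 libraries. The T cell and mitochondrial sums of the groups overlapped, while the osteoclast sums did not. The fibroblast sums, given next, did not overlap either, but they lay near the floor. None of the 10 fibroblast markers could be tested; they summed to 0.560 to 35.6 TPM in the non-trogocytic (12.2 at most without replicate 3) and 0 to 0.185 TPM in the trogocytic libraries, with 3 at 0 throughout. The part of these contents in the Spp1 difference was not tested beyond the values that follow.

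Set against macrophage content, the Spp1 values of the groups overlapped. As a share of the summed TPM of the macrophage list it was 11.1%, 18.2%, 22.3% and 37.8% in the non-trogocytic and 6.46%, 26.1%, 29.5% and 15.8% in the trogocytic libraries. These ranges overlapped over most of their length, and trogocytic replicate 1 was the lowest. Lyz2 and Ctss made up most of the list's sum. Their means were 6418 and 3990 out of 12550 TPM in the non-trogocytic and 2334 and 1678 out of 5241 TPM in the trogocytic libraries. Spp1 minus the mean log2 level of the list was 5.71 ± 0.43 and 5.06 ± 1.01 (SD, n = 4), a difference of -0.65 with a standard error of 0.55. That difference was -0.18 without trogocytic replicate 1 and -0.95 without trogocytic replicate 3, the ends of its range with each library left out. It was -0.31 without replicate 1 of both groups, -0.28 with the summed list in place of its mean and -0.76 with FPKM. The list itself differed by -0.87 with a standard error of 0.50.

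Set against epithelial content, the groups stood apart as a share of the summed list but overlapped against its mean log2 level. Spp1 came to 77.1%, 17.6%, 58.7% and 29.8% of the summed TPM of the epithelium list in the non-trogocytic and to 10.01%, 10.7%, 14.7% and 14.5% in the trogocytic libraries. The groups did not overlap by this share. Krt18 made up much of that sum, at a mean of 3088 out of 6058 TPM in the non-trogocytic and 3358 out of 6261 TPM in the trogocytic libraries. Spp1 minus the mean log2 level of that list was 5.44 ± 0.95 and 4.09 ± 0.35 (SD, n = 4), a difference of -1.34 with a standard error of 0.51. On this scale the groups overlapped, at 4.275 to 6.44 in the non-trogocytic and 3.78 to 4.46 in the trogocytic libraries. The difference was -0.90 without replicate 1 of both groups and -1.17 without non-trogocytic replicate 3. The list itself differed by -0.18 with a standard error of 0.34. These values rest on the contrast that chose Spp1 and carry no test.

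**Figure D3:**
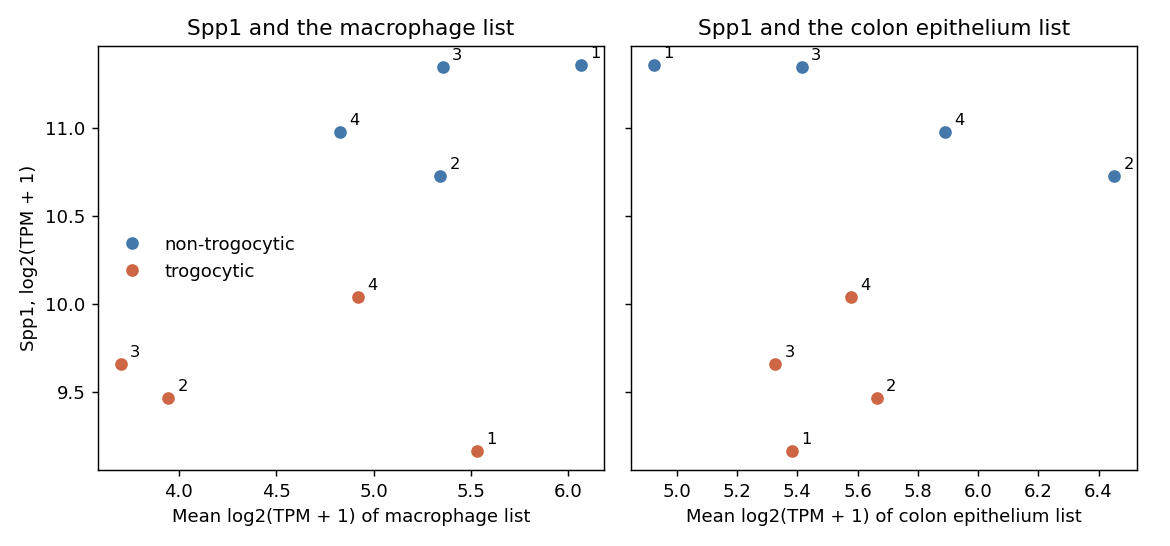
Spp1 (y axis, log2(TPM + 1)) against the mean log2(TPM + 1) of the macrophage list (left x axis) and of the colon epithelium list (right x axis) in each library; numbers are replicates. After subtraction of group means, Spp1 shows no relation over the 8 libraries that passed the test with either list. A single colour was not tested. In the right panel the non-trogocytic points fall from left to right, and the trogocytic points show no such order. Trogocytic replicate 1 has the lowest Spp1 at the second highest macrophage level.

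Within the groups, where the contrast that chose Spp1 plays no part, no relation of Spp1 with macrophage content was detected. After the group mean was subtracted, Pearson's r over 8 libraries was 0.014 with the macrophage list (exact permutation p = 0.979 over all 576 within-group pairings, two-sided) and Spearman's rho was 0.07 (exact permutation p = 0.913). Without trogocytic replicates 2 and 3, the libraries farthest from the median of the list, r was -0.015. The sign of this r depended on single libraries: it ran from -0.21 to 0.68 when each library was left out in turn, and the highest value came without trogocytic replicate 1. It was 0.57 without replicate 1 of both groups. With libraries left out, too few pairings remain for a single relation to pass the adjustment, so these values carry no test. With the macrophage list as a covariate the group difference of Spp1 was -1.52, the same as without it. That adjustment uses the slope within groups, so it restates the r near 0 and adds no evidence on macrophage content. These 8 libraries thus give both values side by side: between groups the macrophage list was lower where Spp1 was lower, and within groups no relation was detectable.

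With the epithelium list r was -0.54 (exact permutation p = 0.172) and rho was -0.55 (exact permutation p = 0.1701), both adjusted p above 0.9 over the 10 relations of the family (0.979 and 0.9375). Without non-trogocytic replicates 1 and 2 r was -0.12 (exact permutation p = 0.854). The groups were unlike in this respect. Across non-trogocytic replicates 1, 3, 4 and 2 the list mean rose (4.92, 5.415, 5.89 and 6.45) while log2 Spp1 fell (11.36, 11.35, 10.98 and 10.73). Trogocytic replicates 1 to 4 showed no such order, with list means of 5.38, 5.66, 5.33 and 5.58 and log2 Spp1 of 9.16, 9.47, 9.66 and 10.04. A relation inside a single group was not tested. In single genes, 13 of 14 tested epithelium markers had an r below 0 with Spp1, and their median of -0.45 stood against -0.08 over all tested genes. With the epithelium list as a covariate, which again uses the slope within groups, the group difference of Spp1 was -1.59.

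For the receptor genes too, no relation with Spp1 was detected within the groups. Their r values ran from -0.41 for Itgav to -0.02 for Itga4. The signs were not stable: Spearman's rho was above 0 for Cd44 (0.024), Itgb1 (0.024) and Itga4 (0.24), and without the 2 libraries farthest from the median r was above 0 for Cd44 (0.51), Itgav (0.078), Itga4 (0.50) and Itga5 (0.70). Of the 10 relations 0 were called by Pearson's r or by Spearman's rho after Benjamini-Hochberg adjustment over the family (smallest adjusted p = 0.9375, exact permutation), and 0 had an unadjusted p below 0.05. With 8 libraries in 2 groups the smallest p this test can give is 0.00174. The 4 genes near the floor enter this family with many values at 0, so their r values hold little information.

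The members differed among themselves in which cell content they moved with inside the groups. These r values are descriptions over 8 libraries that share depth and cell makeup, and carry no p. Itga4 varied with leukocyte markers: its r was above 0 with 18 of 18 macrophage markers (median 0.79), and its median was 0.81 with T cell markers, 0.87 with B cell markers and 0.77 with neutrophil markers, against -0.08 over all tested genes. It was also high where mitochondrial transcripts were (median 0.83), and replicate 1 of each group, where Itga4 was highest, had the highest macrophage, T cell and mitochondrial sums of its group. Itgb1 lay on the epithelial side, with an r above 0 for 12 of 14 epithelium markers (median 0.62) and a median of -0.31 with macrophage markers, against 0.10 over all tested genes.

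Itgav had medians of -0.61 with macrophage and T cell markers and of -0.69 with B cell markers, but 0.04 with epithelium markers. Its TPM also carried the transcript assignment given above. Cd44, whose level hardly varied, had medians of -0.18 with macrophage and -0.43 with epithelium markers. Spp1, with a median of -0.08 over all tested genes, was close to it for macrophage (0.04), T cell (0.06) and osteoclast markers (0.09). It was higher for B cell markers (0.18), neutrophil markers (0.20) and mitochondrial transcripts (0.29). It was lower for dendritic cell markers (-0.34) and epithelium markers (-0.45).

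**Figure D4:**
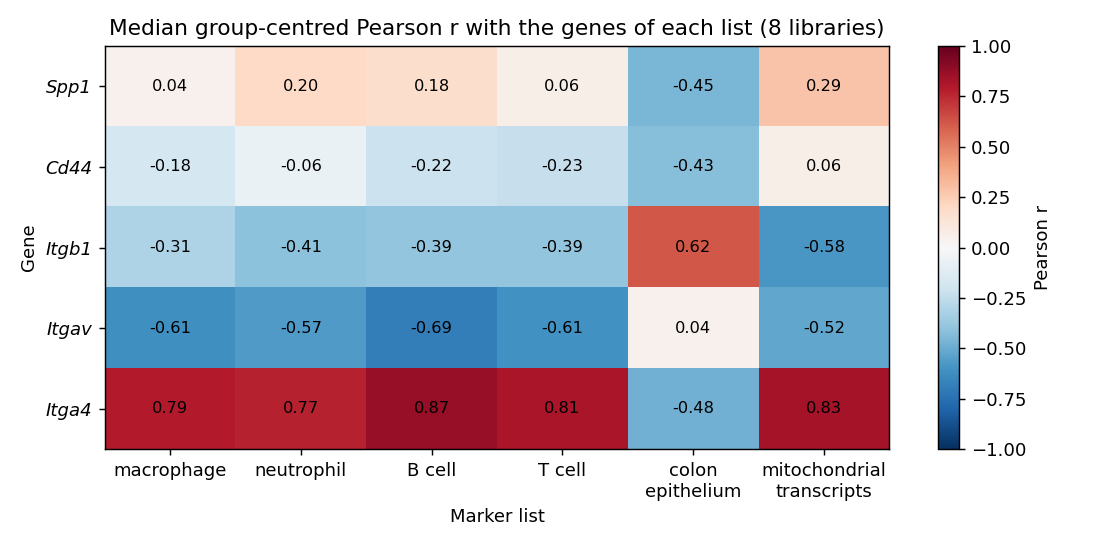
Median Pearson r, after subtraction of group means, between each tested member (rows) and the tested genes of 6 marker lists (columns) over 8 libraries; colour and printed value give the median r. Itga4 has its high values with the leukocyte lists and mitochondrial transcripts, and Itgb1 its highest, 0.62, with the colon epithelium list.

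Among 4151 genes with a mean of at least 20 TPM, those most like Spp1 within the groups were Iah1 (r = 0.96), Sdhaf4 (0.92), Yy1 (0.89), Hspb11 (0.88) and Rnf20 (0.88), and those least like it were Rnft1 (-0.95), App (-0.93), Uqcc1 (-0.93), Prom1 (-0.93) and Nr2c2ap (-0.93). Iah1 also had a log2 group difference of -1.30, whereas that of Sdhaf4 was 0.13 and that of Yy1 was -0.04. App, the amyloid precursor protein, and Prom1, an apical membrane protein of epithelial progenitors, had log2 differences of -0.66 and -0.75. The genes most like the receptors were Dph3 (r = 0.96), Fcho2 (0.94) and Oraov1 (0.93) for Cd44, Mesd (0.96), Psmb5 (0.95) and Lin7c (0.95) for Itgb1, and Ift172 (0.97), Nmd3 (0.95) and Nt5c3 (0.95) for Itgav. For Itga4, ranked among 4152 genes, they were Zfp263 (0.99), Lilrb4a (0.99, an inhibitory receptor of myeloid cells) and Skil (0.98). These genes are the extremes of a ranking over 8 libraries, so the size of their r is no sign of a relation.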

How the data were processed

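Each deposited file holds 1 library, with a coverage, an FPKM and a TPM per gene, per the file headers. HISAT2, StringTie 1.3.3 and DESeq version 2 were used, with the builds GRCm38 and mm10, per the submitters' processing notes. Annotation release and strand setting: not given in the sources used here. The deposited coverage is an unscaled mean read depth across a gene's exons. The deposited FPKM and the deposited TPM were scaled by the authors to depth and transcript length. Libraries were paired-end reads of 100 bases, per the labels.

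TPM was summed per gene ID. The log2 values, log2(TPM + 1) from the deposited TPM with a pseudocount of 1, were fitted by limma-trend (limma 3.58.1, R 4.3.3) for genes that reached 1 TPM in 4 libraries. Tests were two-sided, p-values were Benjamini-Hochberg adjusted over all of these genes, and the threshold was 0.05. Differences are trogocytic minus non-trogocytic, and the pseudocount understates those of low genes. Aligned bases came from coverage divided by FPKM in genes with 1 transcript. Read pairs (coverage times exon length over 200) and mean assigned transcript lengths were estimated with GENCODE M21 exons, so they are approximate, in particular for Itgb5 and Itga5, whose ID versions differ there. The mean length lay within the annotated transcript lengths for 93.7% to 94.0% of genes with several transcripts. Fits were tested on simulated data.

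Relations with Spp1 used group-centred log2 values and exact permutation within groups. The members and lists were chosen with earlier results of these data known. Named genes are all members; per list, the 2 tested genes with the smallest p and the 2 most abundant, of which some are printed; and the genes most like a member in group-centred r. Itga8, Plg, F2 and markers at 0 were named in addition, after their values were seen. Sequence and coordinates are those of GENCODE M21 and the files on GRCm38. Alternatives covered unit, pseudocount, scaling, filter, variance model, replicate block, cell content and each library left out; coverage in place of TPM was chosen after seeing the data.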

Additional observations from a re-analysis of the deposited data

Results flagged for a closer look

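The members, the macrophage and epithelium list means and Spp1 relative to these lists gave 25 groups of 4 values. Of these, 4 groups, all of members, held a library whose gap to the nearest other exceeded the Dixon limit at the 95% level. Chance gives about 1 in 20 for normally distributed values. That rate does not hold for groups mostly at or near 0, such as those of Itga5 and Itga9. Itga4 was 21.3 TPM in non-trogocytic replicate 1 and 1.33 to 3.16 TPM in the other 3. Itga5 was 1.87 TPM in non-trogocytic replicate 4 (others 0 to 0.0689 TPM) and 0.401 TPM in trogocytic replicate 1 (others 0 to 0.0681 TPM). Itga9 was 0.0645 TPM in trogocytic replicate 1 and 0 in the other 3, which is less than 1 estimated read pair.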

How the results depend on the processing

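Across 19 settings 0 receptor genes were called. Itgav kept a log2 difference above 0 (0.12 to 0.82) and Itgb1 below 0 (-0.31 to -0.12). Cd44 turned to 0.011 without trogocytic replicate 4 and was -0.0595 to 0.011 with each library left out; Itga4 turned to 0.13 without non-trogocytic replicate 1 (-1.22 to 0.13) and had no value under the filter of 5 TPM. The Spp1 difference was -1.68 to -1.38 with each library left out; relative to the macrophage list it was -0.95 to -0.18 and relative to the epithelium list -1.73 to -1.01. The r of Spp1 with the macrophage list was -0.065 with coverage and -0.21 to 0.68 with each library left out; that with the epithelium list stayed below 0 (-0.78 to -0.25). The cause of these changes was not tested.

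Replicate numbers were a weak guide to pairing, and the sources used here do not say whether libraries were paired. The correlations of same-numbered libraries were 0.24, 0.01, 0.06 and -0.09, and only numbers 1 and 3 correlated best with their own number. With the replicate block, 0 receptor genes and 0 of all genes were called. The Spp1 difference was -1.52, which the block cannot change in this balanced design. Over all genes 6 were called, against 4 with a pseudocount of 0.1 or a filter of 5 TPM, 5 with either scaling, 1 without the filter or the trend, 6 with FPKM or coverage, 0 without replicate 1 of both groups and 0 to 3 with a library left out. Scaling moved the median of all genes by at most 0.02. Depth limits Itgb3, Itgb5, Itga5 and Itga9, which rested on 0 to 39.6 read pairs.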
